A study of Homo sapiens with 4 samples.

Results

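The genes of human chromosome 9 were followed in their order along the chromosome in a breast cancer cell line and its brain metastatic derivative. A gene was a member if it was a named row of the deposited expression table, mapped by its symbol to chromosome 9 in the GENCODE annotation, and had a mean of at least 10 normalized reads over the 4 libraries. There were 560 members among 14439 genes of the whole table that met the same minimum, 145 on the short arm (9p) and 415 on the long arm (9q), and 485 of them were protein-coding. A further 36 rows of chromosome 9 fell below the minimum. Just inside the minimum lay AL589843.2 and TLE4, each with a mean of 10.2, and just outside it TMOD1, with 9.44. The members were thus chosen by their mean level over both lines and not by the difference between them, but chromosome 9 itself was taken up because of differences seen in these data, so arms, windows and gene lists are described here without a test.

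The parental group was MDA-MB-231 (labelled MDA231-P), a triple-negative breast cancer line with mesenchymal traits, and the other group was MDA-MB-231Br (labelled MDA231-BR), its brain metastatic derivative. Each was represented by 2 libraries of total RNA from cells grown in DMEM with 10% FBS and PS, with no treatment named in the labels. The libraries are called A and B in column order, and values are always given in the order A, B. Whether A and B of a line were grown apart is not said in the labels, so adjusted p-values measure only how far these libraries spread, which may be technical. The question the design addresses is how gene expression differs between breast cancer cells and their brain metastatic counterparts.

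The short arm of chromosome 9 carries a cluster of type I interferon genes beside MTAP and the cell cycle inhibitors CDKN2A and CDKN2B, a region that MDA-MB-231 is known to lack in part, and nearer its end the kinase JAK2 and the checkpoint ligands CD274 (PD-L1) and PDCD1LG2. A block of repeats next to the centromere separates it from the long arm, which carries the kinase ABL1, the receptor NOTCH1, the growth regulator TSC1 and, towards its end, a dense run of GC-rich housekeeping and metabolic genes. Neighbouring genes lie in shared stretches of chromatin, and many have a promoter of their own. For some neighbours on opposite strands, such as RPL35 and ARPC5L, the 250 bases before the starts overlap.

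The promoters of 6 members of the outer long arm are given because 3 of these genes were lower and 3 higher in the brain metastatic line, the contrast found within that stretch. The 250 bases before each start are written 5′ to 3′ on the strand of the gene, from RefSeq on GRCh38.p14, and capitals mark each CG dinucleotide and each match to TATAAA, or its reverse complement TTTATA, searched on both strands. The first 3 belong to genes that were lower in the brain metastatic line, MVB12B at chr9:126326579-126326828 on the plus strand, NCS1 at chr9:130172154-130172403 on the plus strand and STRBP at chr9:123268587-123268836 on the minus strand.
MVB12B: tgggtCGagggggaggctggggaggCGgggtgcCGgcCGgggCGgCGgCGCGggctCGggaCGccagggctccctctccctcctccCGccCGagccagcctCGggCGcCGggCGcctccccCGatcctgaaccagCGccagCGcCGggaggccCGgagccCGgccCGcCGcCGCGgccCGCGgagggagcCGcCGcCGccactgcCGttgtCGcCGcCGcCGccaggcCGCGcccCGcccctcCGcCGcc
NCS1: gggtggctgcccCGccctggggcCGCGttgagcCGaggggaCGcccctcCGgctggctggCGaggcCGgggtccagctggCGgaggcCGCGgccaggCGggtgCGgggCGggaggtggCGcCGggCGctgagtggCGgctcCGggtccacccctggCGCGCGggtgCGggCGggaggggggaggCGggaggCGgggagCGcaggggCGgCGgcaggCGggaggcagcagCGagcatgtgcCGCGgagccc
STRBP: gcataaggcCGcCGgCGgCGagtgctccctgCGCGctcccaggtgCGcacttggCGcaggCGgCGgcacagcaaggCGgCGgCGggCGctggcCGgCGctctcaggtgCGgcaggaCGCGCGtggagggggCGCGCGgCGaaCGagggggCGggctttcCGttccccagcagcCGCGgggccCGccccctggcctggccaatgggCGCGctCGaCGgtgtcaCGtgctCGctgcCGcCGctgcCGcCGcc
The other 3 belong to genes that were higher, TNC at chr9:115118158-115118407 on the minus strand, PAPPA at chr9:116153541-116153790 on the plus strand and LPAR1 at chr9:111038999-111039248 on the minus strand.
TNC: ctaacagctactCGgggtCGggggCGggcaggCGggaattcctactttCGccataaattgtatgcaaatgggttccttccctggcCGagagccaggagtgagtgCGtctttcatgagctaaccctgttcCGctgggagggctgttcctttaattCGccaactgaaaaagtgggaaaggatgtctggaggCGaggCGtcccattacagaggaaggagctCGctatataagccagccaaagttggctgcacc
PAPPA: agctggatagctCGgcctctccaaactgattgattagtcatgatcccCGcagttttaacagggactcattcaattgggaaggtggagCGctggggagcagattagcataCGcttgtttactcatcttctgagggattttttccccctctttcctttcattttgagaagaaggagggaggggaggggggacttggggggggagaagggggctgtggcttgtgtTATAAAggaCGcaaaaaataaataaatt
LPAR1: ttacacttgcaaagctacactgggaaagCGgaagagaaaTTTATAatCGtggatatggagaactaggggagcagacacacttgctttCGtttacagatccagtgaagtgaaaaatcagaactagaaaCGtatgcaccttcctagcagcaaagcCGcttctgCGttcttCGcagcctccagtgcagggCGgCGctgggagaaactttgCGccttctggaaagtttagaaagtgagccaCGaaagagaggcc
MVB12B, NCS1 and STRBP held 41, 33 and 40 CG dinucleotides in these windows, and TNC, PAPPA and LPAR1 held 12, 5 and 11. A TATAAA or TTTATA match was found in PAPPA and LPAR1 and in none of the other 4. RefSeq promoters were matched for 420 of the 560 members, with a median of 23 CG dinucleotides, against 11 over all 27305 promoters of the same length. The share holding a TATAAA or TTTATA match was 5.71% of members and 11.1% of all promoters. A match is a string of letters and not a site shown to be used.

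The 4 libraries held 25835225 to 30771290 reads in named genes, and chromosome 9 members took 3.19% to 3.93% of them. All 7 markers of triple-negative breast cancer lines were present, with summed normalized read counts of 141590 and 124805 in the parental and 222347 and 270398 in the brain metastatic libraries. Within that list VIM, CD44, EGFR and KRT18 were higher in both brain metastatic libraries, KRT8 and MET were lower, and AXL overlapped. Rows were analysed for 6 of 7 luminal markers, KRT19 and ERBB2 being the highest, and for 2 of 7 neuron and glia markers, mostly MBP. They were also analysed for 1 of 5 leukocyte markers (CSF1R), none of 4 fibroblast markers and 3 of 4 endothelial markers. Over all genes with a mean of at least 10 the median log2 difference, brain metastatic minus parental on log2(normalized read count + 1), was 0.02, so that a gene list with no difference would sit near 0.

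Chromosome 9 divided along its length. Members of 9p lay on both sides of 0 in near-equal number, those of the inner part of 9q lay slightly below it, and from PTPN3 to the end of 9q most genes had less RNA in the brain metastatic line. The median log2 difference was -0.30 over all 560 members, 0.03 on 9p and -0.41 on 9q. Taken singly against the parental mean, brain metastatic libraries A and B gave the same -0.30 over the chromosome, and the parental libraries differed from each other by a median of -0.0051. Below 0 lay 373 of the 560 members (66.6%), against 48.8% of all genes.

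By limma-trend with Benjamini-Hochberg adjustment over all 14424 genes tested, 31 members were higher and 70 lower in the brain metastatic line among the 559 members tested. These are 5.55% and 12.5% of members, where the background over all genes was 8.61% higher and 5.8% lower, or 14.4% in either direction. On 9p, 12 rose and 3 fell, and on 9q, 19 rose and 67 fell. The counts depended on single libraries. Removing parental library A left 9 higher and 10 lower, and removing parental library B left 9 and 5. Without brain metastatic library A they were 65 and 150, and without its pair B 39 and 108. Calls over all genes moved too: in the same order of fits, 2.15%, 2.46%, 19.8% and 11.6% of all genes were higher and 0.770%, 0.513%, 16.7% and 10.2% lower. None of the 101 members changed direction in these fits. This was likely from the start, since they were picked as differing in the same libraries. The higher members that passed in each fit were DAPK1, FRMD3, PAPPA, PCSK5, PIP5K1B, S1PR3 and TNC. The lower ones were EGFL7, MVB12B, NCS1, STRBP and SUSD3.

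**Figure D1:**
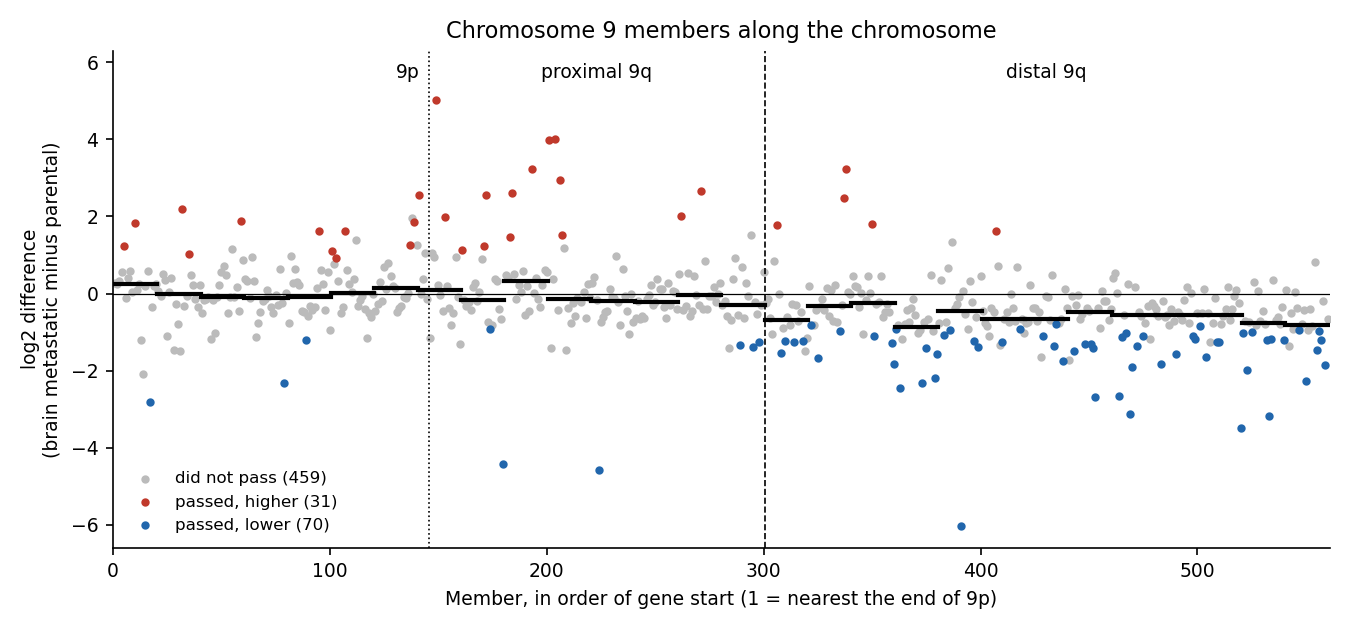
Log2 difference (brain metastatic minus parental) of each of the 560 members, in order of gene start from the end of 9p (left) to the end of 9q (right). Red points passed the test as higher (31), blue as lower (70) and grey did not pass (459, among them 1 untested member); black bars are medians of consecutive windows of 20 members, the dotted line is the centromere and the dashed line the start of distal 9q at PTPN3. Blue points gather right of the dashed line, where every bar lies below 0.

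In 28 consecutive windows of 20 members, the medians ran between -0.86 and 0.32. The highest, 0.32, was that of the window from TLE1 to CDC20P1 on inner 9q, and the lowest, -0.86, that of the window from RBM18 to RPL35 on outer 9q. The 18 windows from DAPK1 to EHMT1 all had a median below 0, the first 5 of them between -0.30 and -0.05. The next 13, from PTPN3 on, lay between -0.86 and -0.25, and 9 of them were at or below -0.5. In those 13 windows the medians of brain metastatic libraries A and B were both below 0, while the parental libraries differed by medians of -0.34 to 0.07. The 3 windows from USP20 to EGFL7 had the lowest of those parental differences, -0.20, -0.28 and -0.34.

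**Figure D2:**
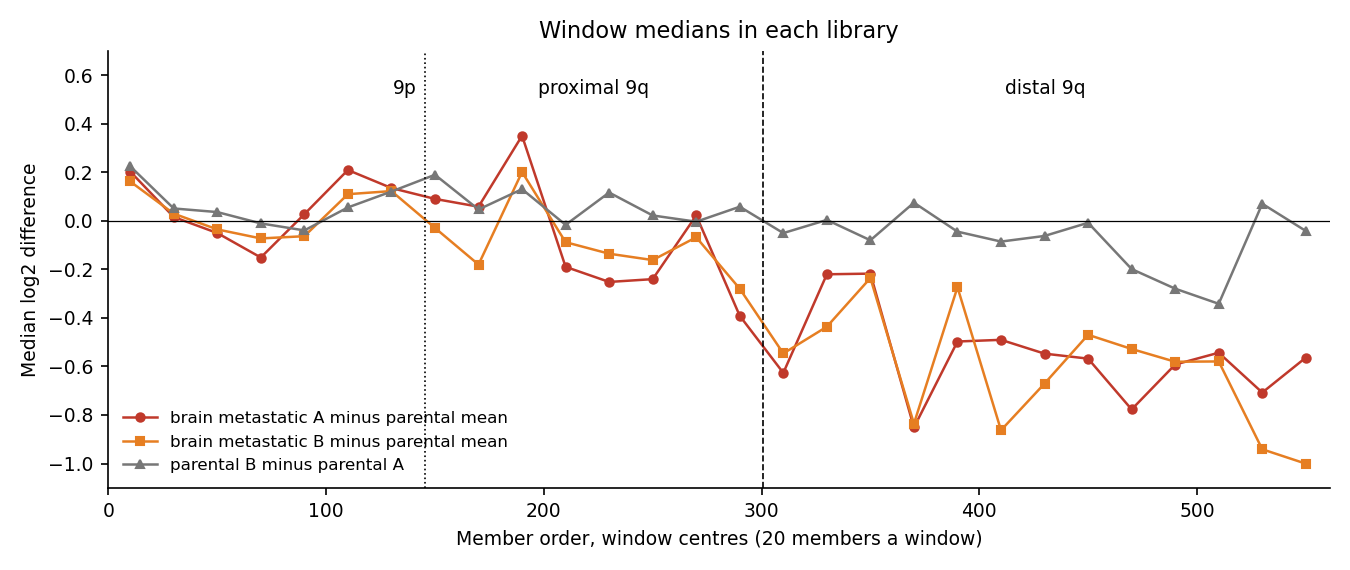
Median log2 difference of the 28 windows of 20 members, plotted at the window's centre in member order, for brain metastatic library A (red) and B (orange), each against the mean of the parental libraries, and for parental library B against A (grey). Both brain metastatic lines run below 0 right of the dashed line at PTPN3, and the grey line stays between -0.34 and 0.22.

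On 9p, a list of genes near the chromosome's end that includes the checkpoint ligands and JAK2 had 21 members, with a median log2 difference of 0.24. Of these, 2 rose (9.52%, background 8.61%), none fell (background 5.8%) and 19 did not pass. The list leaves out RLN2, which lies between JAK2 and CD274 and fell (-2.81, adjusted p = 0.047). VLDLR, a lipoprotein and reelin receptor, had 559.7 and 795 normalized reads in the parental libraries and 1407 and 1756 in the brain metastatic libraries, a log2 difference of 1.23 ± 0.27 (SE, adjusted p = 0.022). SLC1A1, a neuronal and epithelial glutamate transporter, had 41.0 and 75.7 in the parental and 181 and 225 in the brain metastatic libraries, a difference of 1.84 ± 0.39 (adjusted p = 0.020). The libraries of the lines did not overlap for either gene. CD274 had 1476 and 1802 against 1937 and 1802 normalized reads (adjusted p = 0.59) and PDCD1LG2 209 and 252 against 243 and 310.5 (adjusted p = 0.58). JAK2, the kinase of cytokine receptors, had 279 and 242 against 291 and 529 (adjusted p = 0.27), its highest value being that of brain metastatic library B.

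In the 9p21 region the reads stopped short of the cluster's core. CDKN2B, DMRTA1 and ELAVL2 had no read in any of the 4 libraries, for which 3 reads per library is the limit a count of 0 allows. MTAP, the enzyme that salvages methylthioadenosine, had 1, 1, 0 and 0 reads in parental A, parental B, brain metastatic A and brain metastatic B, and CDKN2A had 0, 1, 0 and 0. KLHL9 had 0, 2, 1 and 0 reads and HACD4 0, 0, 1 and 0. Both lines were at the floor for these genes and no fold is given. The 8 members of the list flanking this gap had a median log2 difference of 0.35 and 1 of them passed (12.5%, background 14.4% in either direction): MOB3B, a MOB kinase activator, with 77.6 and 65.0 normalized reads in the parental and 229.5 and 306 in the brain metastatic libraries (1.89 ± 0.33, adjusted p = 0.0090). Its neighbour C9orf72, a regulator of autophagy and membrane traffic, had 468 and 681 against 1038 and 1042, with no overlap between the lines but an adjusted p of 0.064. On the other side of the gap, FOCAD had 48.6 and 58.2 against 48.0 and 161 and MLLT3 592 and 779 against 1235 and 798 (adjusted p = 0.41 and 0.24). IFT74, of intraflagellar transport, was the lowest of the 8, with 1115 and 1386 against 849 and 984 and no overlap between the lines (-0.44 ± 0.24, adjusted p = 0.25). TUSC1, CAAP1 and PLAA had log2 differences within 0.2 of 0.

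Elsewhere on 9p, LURAP1L had 46.9 and 50.4 normalized reads in the parental and 279 and 183 in the brain metastatic libraries (2.20 ± 0.35, adjusted p = 0.0070). TPM2, a tropomyosin of actin filaments, had 196 and 163 against 387 and 779.9 (1.61 ± 0.37, adjusted p = 0.026), brain metastatic library B holding the higher value. These members rose, as did FAM214B (1.09), ANKRD18A (1.86) and IGFBPL1 (1.26). MYORG, a glycosidase, fell from 346 and 292 to 118 and 158 (-1.21 ± 0.30, adjusted p = 0.035). The other passing decreases of 9p, chosen after their values were seen, were RLN2 (-2.81) and ANKRD18B (-2.31), both under 50 normalized reads in every library. The difference of RLN2 was -3.76 with brain metastatic library A left out and -1.86 with B left out. ANKRD18A and ANKRD18B are closely related copies, so the split of reads between them is uncertain. Each of the 15 passing members of 9p lost its call in at least 1 fit without 1 library, those named by value here when either parental library was removed. No member changed direction, as was likely from the start, since these members were picked as differing in the same libraries.

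Proximal 9q, the 155 members from the centromere to EPB41L4B, had a median log2 difference of -0.12, with 14 members higher (9.03%, background 8.61%) and 6 lower (3.87%, background 5.8%). Both shares are near the background. It held the 3 largest increases of the chromosome, PIP5K1B, CDK20 and DAPK1. Of these, PIP5K1B and CDK20 met the minimum mean only through the brain metastatic libraries. Of the list of receptors, kinases and signalling genes, 65 were members, of which 13 rose (20%, background 8.61%), 8 fell (12.3%, background 5.8%) and 44 did not pass, with a median of -0.24. Of these 65, 40 lay in distal 9q, the outer stretch from PTPN3 on, with a median of -0.48. There 2 rose (5%) and 8 fell (20%), against 1.93% and 23.6% of all distal 9q members. All decreases of the list were thus in distal 9q. The list also held STRBP, CRAT and DPP7, an RNA-binding protein, a metabolic enzyme and a peptidase, among its decreases. DAPK1, a calcium and calmodulin-dependent death-associated kinase, had 31.6 and 34.0 normalized reads in the parental and 607 and 466 in the brain metastatic libraries, a difference of 3.98 ± 0.32 (adjusted p = 0.00051). S1PR3, a receptor for sphingosine 1-phosphate, had 203 and 203 against 1683 and 1489 (2.96 ± 0.24, adjusted p = 0.00056). FRMD3, a FERM-domain protein, had 145 and 204 against 908 and 1213 (2.60 ± 0.30, adjusted p = 0.0018). The brain metastatic values of these 3 genes exceeded the parental ones several times over in both libraries, and their calls held without any single library.

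PCSK5, a proprotein convertase, rose from 70.0 and 89.2 to 412 and 527 normalized reads (2.54 ± 0.31, adjusted p = 0.0023), again in every leave-one-out fit. PIP5K1B, a phosphatidylinositol phosphate kinase chosen after its values were seen, had 1 read in the parental and 88 in the brain metastatic libraries, a ratio of 95.1 relative to library totals with an exact 95% interval of 16.6 to 3800.4 that covers counting error only. CDK20 and SHC3, also chosen after their values were seen, are a cyclin-dependent kinase and a neuronal adaptor of receptor tyrosine kinases. CDK20 had 8.53 and 0.970 against 75.9 and 62.5 normalized reads (4.01 ± 0.76, adjusted p = 0.013), and SHC3 had 459 and 441 against 1214 and 1393 (1.53 ± 0.24, adjusted p = 0.0060). DAPK1, CDK20, S1PR3 and SHC3 are all in the window from DAPK1 to BICD2. There 4 of 20 members rose (20%, background 8.61%) and none fell (background 5.8%). But the median of the window was -0.15, and 12 of the 20 lay below 0 (60%, against 48.8% of all genes). Leaving out 1 library took the adjusted p up to 0.067 for CDK20 and 0.072 for SHC3, and the difference of CDK20 was 5.15 without parental library A and 2.87 without B.

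In the window with the highest median, from TLE1 to CDC20P1, most differences were small. This window was picked by its median, so a low share of members below 0 was likely from the start. The members RASEF (1.46), FRMD3 and the nucleoside transporter SLC28A3 (5.97 and 6.79 against 73.0 and 64.6 normalized reads, 3.24 ± 0.47) passed the test as higher. Its other 17 members, among them TUT7 (0.61), HNRNPK (0.19), GOLM1 (-0.36) and C9orf64 (-0.55), did not pass. Of the 20 members, 3 passed as higher (15%, background 8.61%) and none as lower (background 5.8%), and 5 lay below 0 (25%, against 48.8% of all genes). RASEF lost its call without parental library A or B (adjusted p up to 0.18) and SLC28A3 without parental library A (up to 0.053).

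The decreases of proximal 9q were few and 2 of them were nearly complete. SUSD3, a sushi-domain membrane protein, had 500.0 and 767 normalized reads in the parental and 34.6 and 18.0 in the brain metastatic libraries (-4.58 ± 0.41, adjusted p = 0.00069). TLE4, a transcriptional corepressor of the Groucho family, had 24 and 21 reads in the parental libraries and none in the brain metastatic libraries, at least 13.9-fold lower when 3 reads over the 2 libraries are taken as the floor. TLE4 was a member only through its parental libraries, so its direction followed from membership. TLE1, a paralogue whose start comes next among the members, had 1573 and 1399.7 against 2461 and 1754 normalized reads (0.49 ± 0.25, adjusted p = 0.22). Among members that did not pass, KLF4, a transcription factor of epithelial and stem cells, had 402 and 427 against 704 and 1975 (adjusted p = 0.055) and ABCA1, a cholesterol exporter, 1410.3 and 1447 against 283 and 1009.9 (adjusted p = 0.10). Both genes are named after their values were seen, and for both the brain metastatic libraries differed widely. TLE4 reached an adjusted p of 0.11 when 1 library was left out, and SUSD3 0.010.

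Distal 9q comprised 260 members in 13 windows from PTPN3 to EHMT1. Its start was set after the window medians had been seen, so its values are a description. The median log2 difference was -0.60, a brain metastatic level of 0.658 times the parental one on that scale, with quartiles of -1.01 and -0.21. It was -0.60 for brain metastatic library A and -0.59 for library B, and each of the 4 pairings of a brain metastatic with a parental library gave a median between -0.68 and -0.53. Parental library B against A gave -0.08. Of the 260 members 213 (81.9%) lay below 0, and 222 and 206 did so in brain metastatic libraries A and B taken singly.

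**Figure D3:**
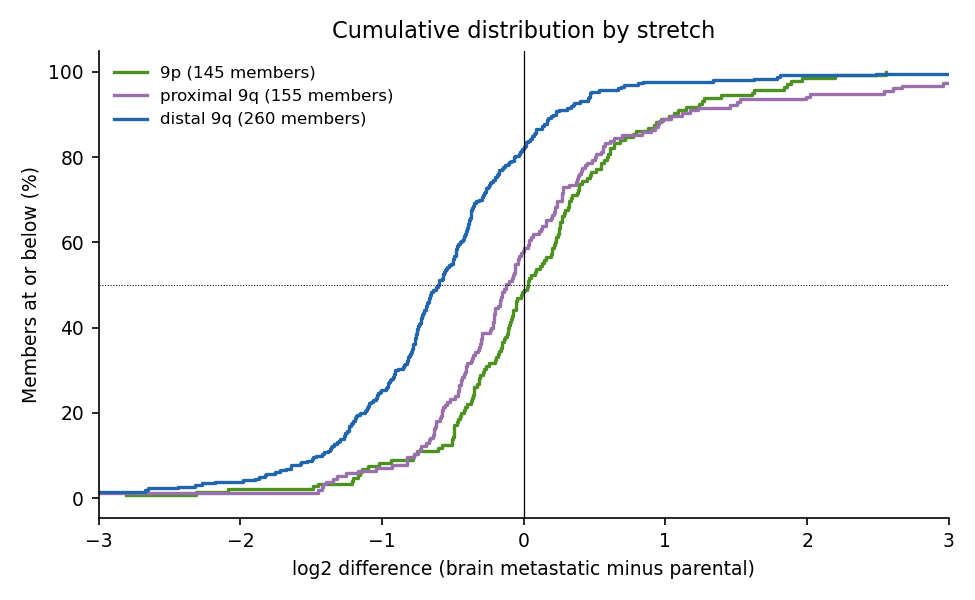
Cumulative percentage of members (vertical axis) at or below each log2 difference (horizontal axis, brain metastatic minus parental, shown from -3 to 3) for 9p (green, 145), proximal 9q (purple, 155) and distal 9q (blue, 260). The blue curve lies left of the others through most of the range and crosses 0 at 81.9% of members, while the green curve crosses it at 48.3%.

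Of the 259 distal 9q members tested, 61 fell (23.6%, background 5.8%) and 5 rose (1.93%, background 8.61%). In 180 members (69.2%) both brain metastatic libraries were below both parental libraries, against 29.5% of all genes, and in 18 (6.92%) both were above, against 31.7%. Members at all levels contributed. Split by mean level into 87, 86 and 87 members, the lowest, middle and highest group had medians of -0.67, -0.67 and -0.45. Protein-coding members had a median of -0.59 and the 24 others -0.73, and genes on the plus and minus strands had -0.57 and -0.66. Distal 9q members took 1.82% and 1.84% of the reads of the parental libraries and 1.27% and 1.62% of the brain metastatic ones, and 133596 reads of the last library were those of HSPA5 alone. Removing parental library A left 8 lower and 3 higher, and removing parental library B left 4 and 3. Without brain metastatic library A the counts were 106 and 12, and without its pair B 88 and 6. Over all genes 0.770%, 0.513%, 16.7% and 10.2% were lower in those 4 fits, so the counts moved with those of all genes.

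GC content moved with position: the median over the longest transcripts was 55.5% in distal 9q, 44.5% in proximal 9q, 46.6% on 9p and 47.4% over all genes. When each library was corrected by loess for the length and GC of transcripts, a step added after seeing the data, the distal 9q median was -0.66, and 114 of its members were lower and 5 higher. Over all genes that correction turned 1242 higher and 837 lower calls into 1682 and 1801.

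The largest decrease on the chromosome was that of MVB12B, a subunit of the ESCRT-I complex that sorts ubiquitinated cargo into multivesicular bodies. It had 375 and 242 normalized reads in the parental and 1.92 and 6.36 in the brain metastatic libraries, a log2 difference of -6.03 ± 0.55 (adjusted p = 0.00072). With so few brain metastatic reads its size was uncertain, at -5.36 without brain metastatic library A, -6.69 without B and -5.11 with a pseudocount of 5. NCS1, a neuronal calcium sensor, had 2279 and 1912 against 351 and 312 (-2.65 ± 0.24, adjusted p = 0.00072). STRBP, an RNA-binding protein of the spermatid perinuclear type, had 2199.5 and 2198 against 444 and 434 (-2.32 ± 0.23, adjusted p = 0.00087). These 3 genes, whose promoter windows held 33 to 41 CG dinucleotides, were lower in both brain metastatic libraries by far more than libraries of a line differed, and they passed in every leave-one-out fit.

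IER5L, a relative of the immediate early gene IER5, fell from 157 and 162 to 21.1 and 27.6 normalized reads (-2.67 ± 0.37, adjusted p = 0.0038). TMEM141, a small membrane protein, had 259 and 603 against 139 and 71.0 (-1.98 ± 0.48, adjusted p = 0.032), with its highest value in parental library B. The chloride channel protein CLIC3, chosen after its values were seen, had 54.6 and 78.6 against 7.68 and 5.30 (-3.17 ± 0.50, adjusted p = 0.0063), and NRARP, an inhibitor of Notch signalling chosen in the same way, had 64.0 and 66.9 against 15.4 and 10.6 (-2.27 ± 0.45, adjusted p = 0.016). NOTCH1 itself had 1029.8 and 649.9 against 548 and 876 (adjusted p = 0.65), with overlapping libraries. Without 1 library the adjusted p rose as far as 0.073 for IER5L, 0.32 for TMEM141, 0.13 for CLIC3 and 0.20 for NRARP, and each of these genes lost its call in at least 1 such fit. The difference of TMEM141 was -2.59 without parental library A and -1.37 without B.

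The lowest window, from RBM18 to RPL35, was picked by its median, so high shares of lower members were likely from the start. In it 19 of 20 members lay below 0 (95%, against 48.8% of all genes). For 17, both brain metastatic libraries were below both parental ones (85%, against 29.5% of all genes), and 6 passed as lower (30%, background 5.8%). Those were RBM18 (-0.91), PTGS1 (-2.44), STRBP, NEK6 (-1.42), OLFML2A (-2.18) and RPL35 (-1.58). PTGS1 is the constitutive cyclooxygenase, with 55.5 and 66.0 against 7.68 and 13.8 normalized reads. NEK6, a mitotic kinase, had 2216 and 2017 against 823 and 752, and OLFML2A, an olfactomedin-like matrix protein, 1328 and 1161 against 186 and 401. The member above 0 was NR6A1, an orphan nuclear receptor, at 74.2 and 82.5 against 81.6 and 145 (adjusted p = 0.44). The remaining members lay between -1.18 (the pseudogene SKA2P1) and -0.14 (AC007066.2), among them the proteasome subunit PSMB7 (-0.66) and the zinc finger genes ZBTB6 (-0.75) and ZBTB26 (-0.38). RBM18, PTGS1, NEK6 and OLFML2A lost their calls when parental library A, or instead B, was removed (adjusted p up to 0.35, 0.22, 0.085 and 0.073), and RPL35 without parental library B (0.14).

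Of the 7 gene lists, that of metabolic enzymes and transporters had the lowest median. Of 65 members in it, 1 rose (1.54%, background 8.61%), 16 fell (24.6%, background 5.8%) and 48 did not pass, with a median of -0.66. The 41 of them in distal 9q had a median of -0.75, and 15 fell (36.6%) and none rose. Of all distal 9q members 23.6% fell and 1.93% rose, with a median of -0.60. The part of position in the list's low median was not tested. PTGR1, which reduces prostaglandins and leukotrienes, had 1743 and 2099 against 859 and 508 normalized reads (-1.53 ± 0.30, adjusted p = 0.015). Further decreases, chosen after their values were seen, included UGCG, which makes glucosylceramide (-1.23), the peroxisomal protein HSDL2 (-1.27), carnitine acetyltransferase CRAT (-1.30), argininosuccinate synthase ASS1 (-1.12) and the copper importer SLC31A1 (-0.82). The list also held MVB12B and SCAI (-1.08), a sorting factor and a transcriptional cofactor, which are not enzymes or transporters. Values of enzymes that did not pass included -0.48 for folylpolyglutamate synthase FPGS, -0.70 for COQ4 and -0.15 for ALAD of haem synthesis. PTGR1 had adjusted p up to 0.14 without 1 parental library, and each of the other metabolic members named as lower except MVB12B lost its call in at least 1 such fit.

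Of the 75 members in the list of ribosomal, translational and core machinery, 1 rose (1.33%, background 8.61%), 8 fell (10.7%, background 5.8%) and 66 did not pass, with a median of -0.33. All 8 decreases were among its 29 distal 9q members (27.6%, against 23.6% of all distal 9q members), which had a median of -0.66. RPL7A, a protein of the large ribosomal subunit, had 21609.7 and 28959 normalized reads in the parental and 10422 and 6768 in the brain metastatic libraries (-1.57 ± 0.28, adjusted p = 0.011). RPL35 had 12971 and 20434 against 6835 and 4329 (-1.58 ± 0.31, adjusted p = 0.015), and RPL12, named after its values were seen, 17609.9 and 28477 against 11089.5 and 6693 (-1.38 ± 0.33, adjusted p = 0.029). RPS6, of the small subunit and on 9p, had 27372 and 43559.6 against 22619.9 and 12827 (-1.02 ± 0.34, adjusted p = 0.082). In all 4 genes parental library B was the highest and brain metastatic library B the lowest.

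Ribosomal protein genes also lay below 0 on other chromosomes. There, 74 of them had a median of -0.89, and 14 fell (18.9%, background 5.8%). The 4 on chromosome 9 had a median of -1.48, and 3 of them fell (75%). Over the 74, parental library B exceeded A by a median of 0.65, and brain metastatic libraries A and B differed from the parental mean by -0.55 and -1.25, so their level varied within each line. The part of this in the chromosome 9 values was not tested. Ribosomal protein genes have many near-identical pseudogenes, which makes their counts uncertain. RPL7A and RPL35 lost their calls without parental library B (adjusted p up to 0.11 and 0.14), and RPL12 reached 0.26 in such a fit.

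Of 50 members in the list of transcription factors and chromatin genes, 1 rose (2%, background 8.61%), 3 fell (6%, background 5.8%) and 46 did not pass, with a median of -0.07 over the chromosome and -0.55 for the 20 in distal 9q. SET, a histone chaperone and inhibitor of the phosphatase PP2A, had 19942 and 18464 normalized reads in the parental and 11926 and 10245 in the brain metastatic libraries (-0.80 ± 0.22, adjusted p = 0.048), and its call was lost in 3 of 4 fits without 1 library, with edgeR and without the filter on low values (adjusted p up to 0.29 over the fits without 1 library). The other decreases were TLE4 and the homeobox gene LHX6 (64.0 and 67.9 against 11.5 and 27.6, a difference of -1.82 that was -1.23 with brain metastatic library A left out and -2.42 with B left out), and the increase was the nuclear receptor NR4A3 (5.97 and 4.85 against 26.9 and 58.3). Both are named after their values were seen. EHMT1, a histone H3 methyltransferase and the last member of the chromosome, had 1639 and 1204 against 811 and 964 (-0.67 ± 0.26, adjusted p = 0.12). ABL1 and TSC1, the cancer genes of distal 9q that served as landmarks, had differences of 0.25 and -0.19, with libraries of the lines overlapping (adjusted p = 0.56 and 0.74).

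Of 29 members in the list of matrix, secreted and adhesion proteins, 4 rose (13.8%, background 8.61%), 6 fell (20.7%, background 5.8%) and 19 did not pass, with a median of -0.29. The 17 of them in distal 9q also had a median of -0.29, against -0.60 for all distal 9q members. There 2 rose (11.8%) and 5 fell (29.4%), against 1.93% and 23.6% of all distal 9q members. Below 0 lay 9 of the 17 (52.9%), against 81.9%. EGFL7, a secreted EGF-domain protein known from endothelium and host of the microRNA miR-126, had 361 and 555 normalized reads in the parental and 63.4 and 23.3 in the brain metastatic libraries (-3.50 ± 0.49, adjusted p = 0.0038), and its difference was -4.21 with brain metastatic library A left out and -2.80 with B left out. VAV2, a guanine nucleotide exchange factor, and AIF1L, an actin-binding protein, were also lower (-1.09 and -1.90), both named after their values were seen. The collagen gene COL5A1 had 3021 and 2009 against 1706 and 4247 and TNFSF15, a ligand of the TNF family, 937 and 1799 against 1637 and 691, without passing (adjusted p = 0.86 and 0.69).

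Against the general direction of distal 9q, 5 of its members rose: LPAR1, TNC, PAPPA, TRAF1 and ENG. TNC, the matrix glycoprotein tenascin C, had 1543 and 1523 normalized reads in the parental and 8031 and 9176 in the brain metastatic libraries (2.48 ± 0.22, adjusted p = 0.00064). PAPPA, a secreted metalloprotease that frees insulin-like growth factors from their binding proteins, had 132 and 139.7 against 975 and 1699 (3.23 ± 0.32, adjusted p = 0.00091). The start of PAPPA follows that of TNC among the members, and both genes passed in every leave-one-out fit, as neighbours in a window with a median of -0.32. LPAR1, a receptor for lysophosphatidic acid, had 1489.7 and 2022 against 6718 and 5332 (1.79 ± 0.25, adjusted p = 0.0040). TRAF1, an adaptor of TNF receptors, had 294 and 277 against 585 and 1718 (1.81 ± 0.46, adjusted p = 0.036), the value of brain metastatic library B standing well above that of A, so that the difference was 2.58 without A and 1.03 without B.

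ENG, the TGF-beta coreceptor endoglin, which was named after its values were seen, had 651 and 456 against 1686 and 1679.6 normalized reads (1.63 ± 0.26, adjusted p = 0.0068). Of the endothelial markers, CDH5 had at most 4.80 normalized reads in a library and VWF was not analysed here, while the summed level of the list ran from 125 to 228 in the parental and from 717 to 821 in the brain metastatic libraries, most of it KDR and PECAM1. The part of that in the value of ENG was not tested. Without parental library A the calls of LPAR1 and TRAF1 were lost, and that of TRAF1 without parental library B as well (adjusted p up to 0.052 and 0.18), while ENG reached 0.085 without 1 library. Median CG counts in the promoters were 11 for these 5 genes and 25.5 for the 56 lower members of distal 9q with a RefSeq promoter. A TATAAA or TTTATA match was present in 2 of the 5 and 3 of the 56. Over the whole chromosome the medians were 24 for 28 higher and 25 for 64 lower members with a promoter, so that the contrast was not there, and in distal 9q it rests on 5 promoters.

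HSPA5, the endoplasmic reticulum chaperone BiP, showed how far 1 library could go. It had 26735 and 23327 normalized reads in the parental libraries and 28138 and 141567 in the brain metastatic libraries, so that brain metastatic library A lay near the parental values and B far above all of them. The log2 difference was 1.34 ± 0.62 and did not pass (adjusted p = 0.18).

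**Figure D4:**
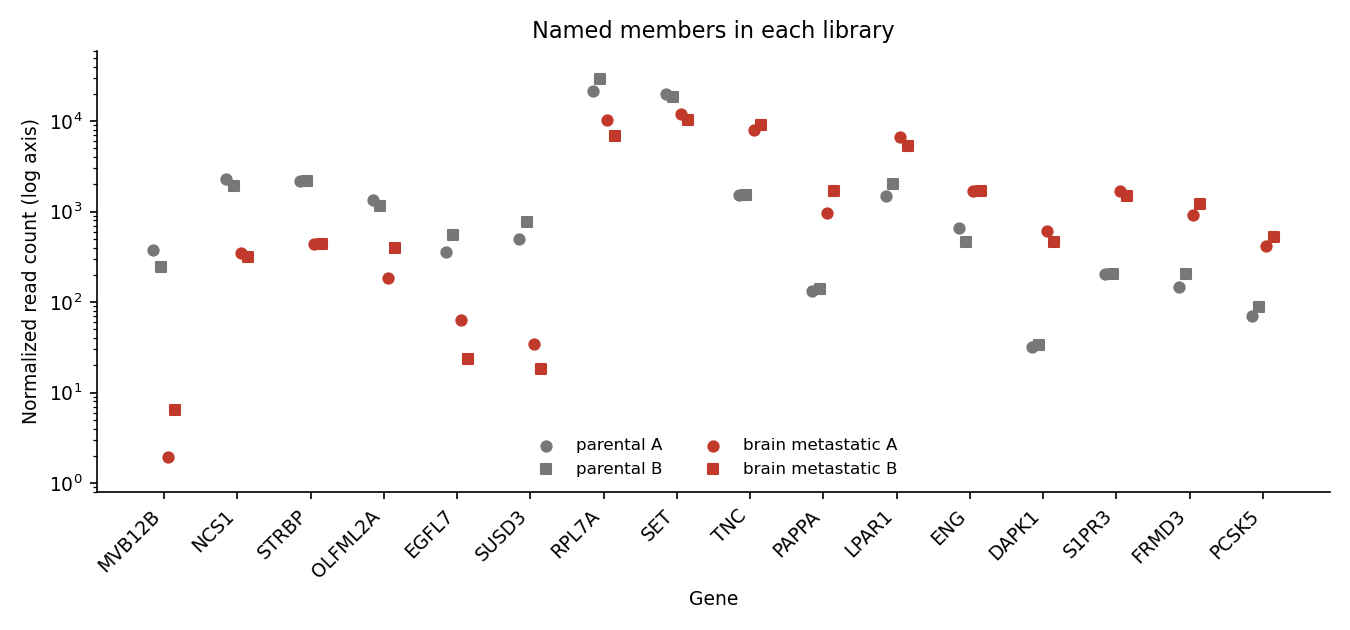
Normalized read count (log axis) of 16 named members in each library, parental A and B in grey and brain metastatic A and B in red, circles for A and squares for B. For each gene the grey and red symbols do not overlap: red lies below grey from MVB12B to SET and above grey from TNC to PCSK5. No overlap was a condition for naming these genes, except for ENG, which was picked after its values were seen.

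Along the chromosome, the log2 differences of each member and the next had a Spearman correlation of 0.283 over 559 neighbouring pairs, given as a description since neighbours share libraries, depth and base composition. The same measure for parental library B against A was 0.0063. Within 9p the correlation was 0.304, within proximal 9q 0.116 and within distal 9q 0.0453, so that inside distal 9q a member's value was hardly related to that of its neighbour. On the 22 other chromosomes it ran from 0.0060 to 0.413 with a median of 0.159, and chromosome 9 was the fourth highest of 23.

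Chromosome 9 had the third lowest median of 23 chromosomes, after chromosome 21 at -0.38, and chromosomes 7 and 9 were level at -0.30. Of its 28 windows, 9 had a median at or below -0.5. On chromosome 7 these were 11 of 34, and on the 22 other chromosomes together, chromosome 7 included, 43 of 680 (6.32%), spread over 11 chromosomes. The lowest window elsewhere, at -1.15, was on chromosome X. Runs of windows below 0 reached 18 on chromosome 9 and 23 on chromosome 7. No difference between chromosomes was tested, and RNA was the only molecule in the files used here.

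**Figure D5:**
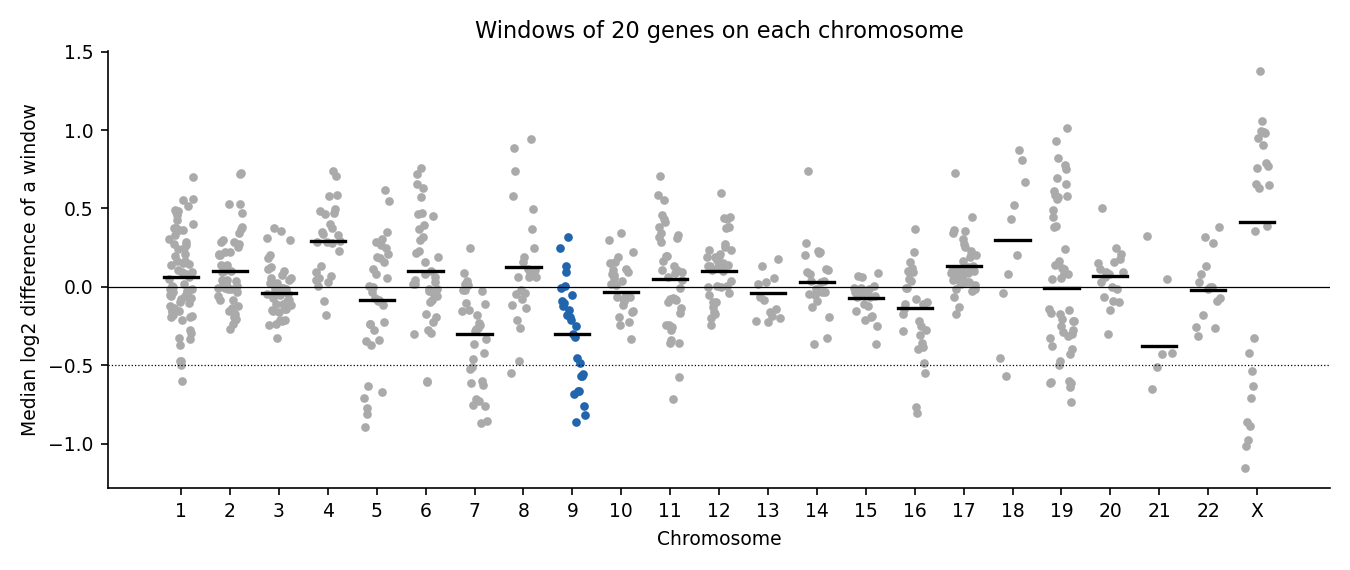
Median log2 difference of consecutive windows of 20 genes (points) on each chromosome, with the median over all genes of the chromosome (bars). Chromosome 9, in blue, has 9 windows at or below the dotted line at -0.5, and chromosomes 5, 7, 16, 19 and X also have several there.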

How the data were processed

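RNA-seq of 2 MDA231-P and 2 MDA231-BR libraries was used. Per the submitters' processing notes, the authors' build was GRCh37, and their tools, named without versions, were HISAT2, featureCounts and DESeq2. The strand setting is not given in the sources used here, so reads of genes that overlap, antisense ones included, cannot be told apart. The deposited values are a read signal divided by size factors, here called normalized read counts. Whole reads were recovered for 100% of values (tolerance 0.01), and 1 read is worth 0.853 to 1.06 normalized reads. A column names its line alone, so it was assigned to a line. Unnamed rows (67 of 15346, 0.031% to 0.0369% of reads) were left out.

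Chromosome, order, arm and type came from GENCODE release 29, built on GRCh38, so no gene coordinates are given. The arms were divided at the widest gap between member starts. Differences were tested with limma-trend (limma 3.58.1, R 4.3.3) on log2(value + 1), a scale that understates changes of low genes, after filterByExpr (edgeR 4.0.16, minimum count 10, minimum total 15), with Benjamini-Hochberg adjustment over 14424 genes and a threshold of 0.05. On data simulated with the same replicate spread for every gene, 200 of 200 genes changed 4-fold were recovered, with 11 false calls. The spread of the real libraries varied between genes, so this does not measure error rates in these data. The members, the 7 gene lists and the tests were chosen with earlier results of these data known. Named genes were, on each arm, the 8 largest increases and decreases that passed at 5 CPM or more without overlap, up to 2 a direction from each list, the members of the lowest and highest windows, window ends, the 3 most abundant members of a line and the 9p21 list; others are said to be chosen after their values were seen. Alternatives were other pseudocounts, scalings, filters, tests (edgeR, DESeq2 1.42.0), window sizes and leaving out each library.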

Additional observations from a re-analysis of the deposited data

How the results depend on the processing

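No paired analysis was possible because the columns carry no replicate number. Of the 34 genes followed through the alternatives, none reversed. Their libraries did not overlap between the lines, so leaving out 1 library could not reverse them. Many lost the call without parental library A or B, where the lone parental library is assumed to vary like the other line. The counts of members, 31 higher and 70 lower, ran from 9 to 65 and from 5 to 150 when 1 library was left out, and 143 were lower after the loess correction. The chromosome median of -0.30 was -0.33 with TMM scaling, -0.34 with scaling to library totals and -0.38 after the loess correction. The 9p median of 0.03 was 0.0046 with TMM scaling and turned to -0.0064 with library totals, with 0.0074 to 0.0786 over fits without 1 library, so 9p has no direction. The 9q median of -0.41 was -0.44 with library totals, -0.50 after the loess correction and -0.42 to -0.36 without 1 library. The distal 9q median ran from -0.66 to -0.50 without 1 library, and was -0.58 when begun at SMC2 and -0.67 when begun at RBM18. The lowest window was -0.99 in windows of 10, -0.78 in windows of 40 and -1.0004 to -0.85 without 1 library, and the highest was 0.78, 0.20 and 0.20 to 0.44. The neighbour correlation of 0.283 ran from 0.179 to 0.364 without 1 library. The cause of these changes was not tested. Depth limits the genes of few reads, such as PIP5K1B, TLE4 and the 9p21 core.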
